A study of Mus musculus with 12 samples.

Results

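Ryr2 and the other genes that move calcium across the membrane of the endoplasmic or sarcoplasmic reticulum were followed in brown adipose tissue (iBAT) of mice under high-fat diet (HFD), cold or both. The 10 genes are the ryanodine receptors Ryr1, Ryr2 and Ryr3, the inositol trisphosphate (IP3) receptors Itpr1, Itpr2 and Itpr3, the SERCA pumps Atp2a1, Atp2a2 and Atp2a3, and the SERCA regulator Sln, out of 61210 genes in the count table. They were taken by gene name as families, but the set was chosen from results of these libraries in which Ryr2 was much higher under HFD. The values of Ryr2 are therefore given as a description, with fold changes and standard errors (SE) but without a p-value. Of the 10 genes, 9 passed the filter on low counts (at least about 10 counts in 3 libraries) and were tested among 16737 genes. Ryr3 did not pass.

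Total RNA was sequenced after removal of ribosomal RNA from iBAT of wild type C57BL/6N mice at the age of 20 weeks, in 4 groups of 3 libraries. Mice on the control chow diet (NCD) were kept at 22 °C or moved to 4 °C for 24 h, and mice fed HFD for 12 weeks from the age of 8 weeks were kept at the same 2 temperatures. No group carried a transgene, and the labels do not say whether a library held 1 animal or several, so p-values measure the spread between these libraries. The series description expands iBAT as inguinal and the paper as interscapular. Ucp1, the uncoupling protein that defines brown adipocytes, was at 4203 ± 533 CPM (counts-per-million of the TMM-scaled library, SD, n = 3) in NCD at 22 °C and at 16357 ± 2132 CPM in NCD at 4 °C, and the depot itself cannot be told from these counts.

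Calcium leaves the reticulum through ryanodine receptors, which open on calcium or voltage signals in muscle and nerve, and through IP3 receptors, which open when a receptor on the cell surface activates phospholipase C. SERCA pumps spend ATP to carry calcium back in. In skeletal muscle, sarcolipin (Sln) lets the SERCA pump burn ATP without moving calcium, and in beige fat a cycle of Ryr2 release and Atp2a2 uptake is known as a source of heat that does not need Ucp1. Ryr1, Atp2a1 and Sln are at the same time textbook genes of skeletal muscle fibres, small pieces of which can come along when brown fat is dissected.

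Library depth was 15136861 to 46740702 counts, and the 4 libraries of batch 2, which are the replicates numbered 3, were deeper (34067515 to 46740702) than the 8 of batch 1 (15136861 to 21026727). Libraries differed widely in skeletal muscle RNA. The muscle score of a library is the mean log2 CPM of 17 skeletal muscle markers. It ran from 4.53 to 9.62, and the highest score of each group belonged to replicate 2 in both NCD groups and to replicate 3 in both HFD groups. The summed markers reached 19215, 10357, 20412 and 6124 CPM in these 4 libraries, against 650 to 4166 CPM in the other 8. In each of the 6 pairs of same-numbered libraries of a diet, the score was lower at 4 °C than at 22 °C. In tissue libraries, fewer cells of a type and less RNA per cell cannot be told apart.

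The promoter windows of the 3 genes on which the diet and cold comparisons below turn are shown first, so that the letters can be set beside the values. They are the 250 bases before the start of the gene in RefSeq on GRCm38.p6, read on the strand of the gene from 5′ to 3′, and none of the 3 windows overlaps an annotated gene. Capitals mark matches on either strand to 6 motifs that were searched: the cAMP response element TGACGTCA and its core TGACG, the E box CAGCTG, the GC box GGGCGG, the letters CCAAT alone and the TATA box TATAAA. The first 2 of these motifs overlap each other.
Ryr2, chr13:12106946-12107195, minus strand: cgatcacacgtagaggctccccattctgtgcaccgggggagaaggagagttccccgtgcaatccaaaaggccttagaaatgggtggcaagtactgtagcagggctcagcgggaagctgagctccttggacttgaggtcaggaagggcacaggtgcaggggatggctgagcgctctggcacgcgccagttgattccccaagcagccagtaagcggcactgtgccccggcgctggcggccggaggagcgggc
Itpr2, chr6:146502224-146502473, minus strand: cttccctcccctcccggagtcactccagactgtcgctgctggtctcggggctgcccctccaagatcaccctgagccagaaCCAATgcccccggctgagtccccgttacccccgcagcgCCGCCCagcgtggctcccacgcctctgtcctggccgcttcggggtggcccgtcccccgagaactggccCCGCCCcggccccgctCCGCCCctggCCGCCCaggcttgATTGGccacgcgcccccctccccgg
Atp2a3, chr11:72960919-72961168, plus strand: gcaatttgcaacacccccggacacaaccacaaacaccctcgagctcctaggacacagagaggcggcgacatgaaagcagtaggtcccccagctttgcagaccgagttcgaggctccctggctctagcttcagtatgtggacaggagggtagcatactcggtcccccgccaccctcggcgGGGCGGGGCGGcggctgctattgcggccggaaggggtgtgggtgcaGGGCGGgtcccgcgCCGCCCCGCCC

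The Ryr2 window held none of the 6 motifs, and 63.2% of its bases were G or C. The Itpr2 window held 4 GC boxes and 2 CCAAT matches, and the Atp2a3 window held 5 GC boxes. Over the windows of all 27025 genes in the RefSeq table, 32.9% held a GC box, 34.5% CCAAT, 12.8% the E box, 13.0% TATAAA, 17.9% TGACG and 1.62% the full cAMP element. Windows were found for 6 of the 10 genes. Among the 3 not printed, Atp2a1 held 1 E box at position -55 from its start and 1 CCAAT, Ryr1 held 2 GC boxes and 1 CCAAT, and Itpr3 held 1 GC box. A match describes the letters only.

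A gene was called where its Benjamini-Hochberg adjusted p was below 0.05 and its log2 fold change lay beyond 0.5 in either direction. Counted over the set, cold under NCD called 0 of the 9 tested genes with edgeR. At an unadjusted p under 0.05 there was 1, and DESeq2 called 0. DESeq2 gave no p-value for Ryr1 and Atp2a1 in any comparison, so it could call neither. Of all genes tested, edgeR called 6.27% (3.72% higher and 2.55% lower). Cold under HFD called 1, Itpr2, beside 9.58% of all genes (5.39% higher and 4.19% lower). HFD at 22 °C called 1 beside 2.09% of all genes, and HFD at 4 °C called 1 beside 4.75%. In both it was Ryr2, from which nothing is read. The interaction of diet and temperature called 0 of 9, with 2 at an unadjusted p under 0.05 (Itpr1 and Atp2a3) and 0 by DESeq2. Over all genes edgeR called 0%, with 1091 at an unadjusted p under 0.05, and DESeq2 called 61. For cold under HFD, 1 of 9 is near the 9.58% of all genes. For HFD at 22 °C and at 4 °C the 1 call was Ryr2, on whose values the set was chosen.

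Ryr2, the ryanodine receptor of heart and brain, was low in every NCD library and high in every HFD library. In NCD at 22 °C the 3 libraries had 9.02, 6.80 and 9.87 CPM, and in NCD at 4 °C they had 9.40, 4.94 and 14.8 CPM. In HFD at 22 °C they had 107, 102 and 127 CPM, and in HFD at 4 °C 75.6, 101 and 59.6 CPM. The lowest of the 6 HFD libraries (59.6 CPM) thus stood above the highest of the 6 NCD libraries (14.8 CPM). Behind these values were 84 to 627 counts a library under NCD and 1657 to 4514 under HFD. The log2 fold change of HFD against NCD was 3.70 (SE 0.35) at 22 °C, a 13.0-fold difference, and 2.998 (SE 0.34) at 4 °C, a 7.99-fold difference. Since these values chose the gene, they are a description.

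Between temperatures Ryr2 differed less than between diets. Under NCD the log2 fold change of 4 °C against 22 °C was 0.20 (SE 0.33), and the groups overlapped. Under HFD it was -0.51 (SE 0.31), where the highest cold library (101 CPM) lay just under the lowest library at 22 °C (102 CPM). The difference between both cold changes was -0.71 (SE 0.45) on the log2 scale.

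**Figure D1:**
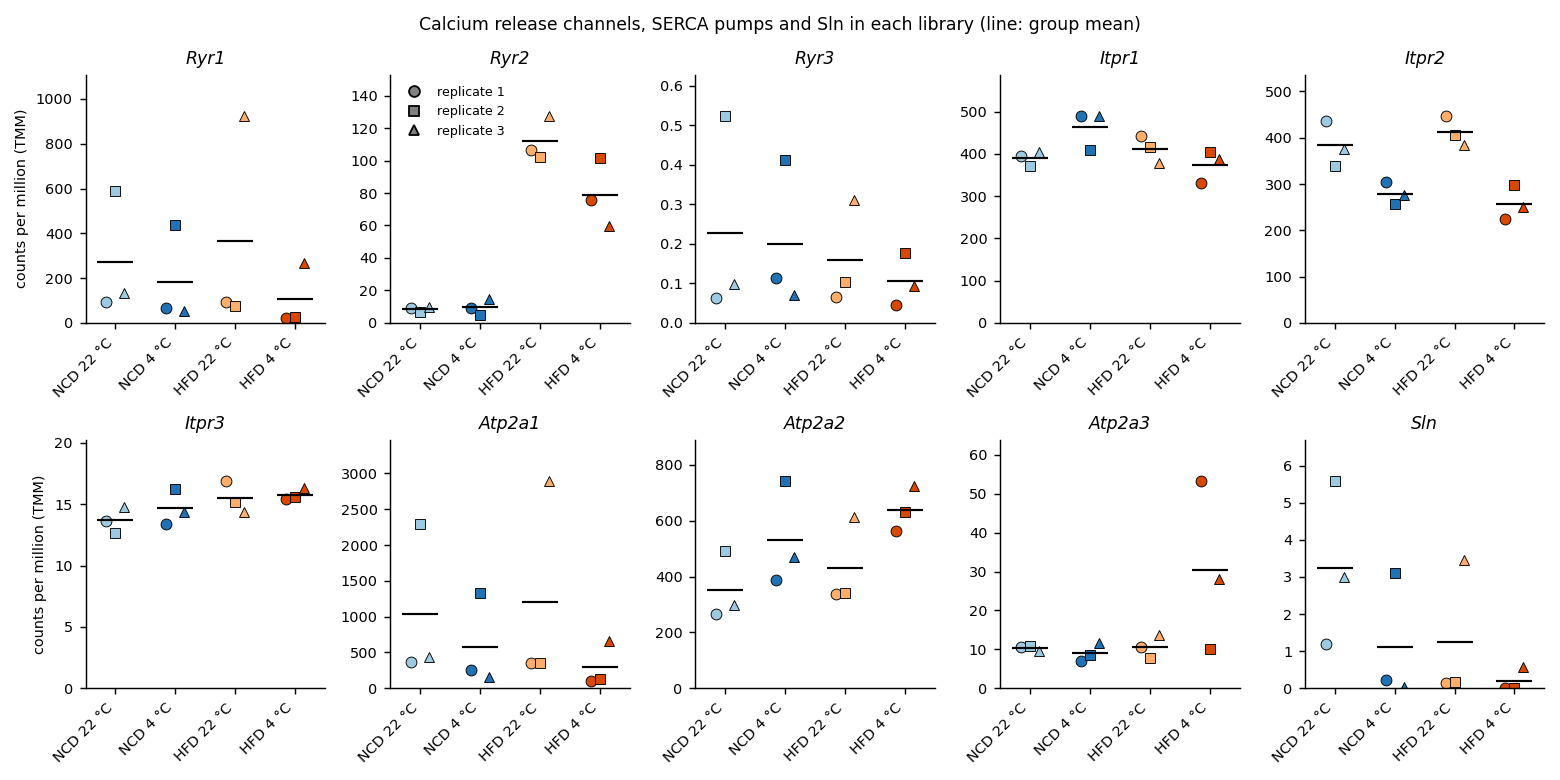
CPM (y axis, from 0) of the 10 genes in the 12 libraries, by diet and temperature (x axis). Points are libraries, their shape is the replicate number, and the line is the mean of the 3 libraries. Ryr2 lies between 4.94 and 14.8 CPM in the NCD libraries and between 59.6 and 127 CPM in the HFD libraries, while Ryr1 and Atp2a1 are high in 1 library of each group.

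Ryr2 is set beside muscle, cardiac and endothelial markers here as a description. The library with the highest muscle score under NCD at 22 °C, replicate 2, had 6.80 CPM of Ryr2 and 3571 CPM of Acta1 (skeletal alpha actin), while HFD at 4 °C replicate 1 had 75.6 CPM of Ryr2 and 96.0 CPM of Acta1. With the muscle score as a term in the fit, the diet differences were 3.70 at 22 °C and 2.89 at 4 °C. Without the 4 libraries of highest muscle score they were 3.46 and 2.85, and in batch 1 alone 3.72 and 3.62. Of 5 cardiac markers, Nppa (atrial natriuretic peptide) had no count in any of the 12 libraries, Tnni3 (cardiac troponin I) reached at most 0.353 CPM and Tnnt2 (cardiac troponin T) at most 1.00 CPM. Myh6 (atrial myosin) had 26.3 CPM in NCD at 22 °C replicate 2 and at most 1.32 CPM in the other libraries. Actc1, an actin of heart that skeletal muscle also makes, had 0.933, 27.9 and 14.7 CPM in NCD at 22 °C and at most 2.3 CPM in the other groups. The 5 markers summed to 1.31 to 55.3 CPM in NCD at 22 °C and to 0.663 to 4.35 CPM in NCD at 4 °C. In the HFD libraries they summed to 0.270 to 3.71 CPM. The summed 4 endothelial markers were 445 to 564 CPM in NCD and 642 to 871 CPM in HFD at 22 °C, and 646 to 744 CPM in NCD and 867 to 996 CPM in HFD at 4 °C. Of these 4, Pecam1 rose with HFD at 22 °C by a log2 fold change of 0.72 (SE 0.11, edgeR adjusted p = 0.00786). The parts of skeletal muscle, heart and vessel content in the Ryr2 values were not tested.

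Ryr2 lies on chromosome 13 at 11553102 to 12106945 (GRCm38, minus strand) and has 28.8 kb of merged exons. Among all 16737 genes tested, 26 had a larger fitted rise than Ryr2 with HFD at 22 °C and 55 at 4 °C, and 9 had a larger one at both temperatures. After these values had been seen, the tested genes that start within 2 Mb of the Ryr2 start were listed. There were 17. Their HFD log2 fold changes ran from -0.35 to 0.96 at 22 °C and from -0.45 to 0.66 at 4 °C, with medians of 0.20 and 0.14. Past the threshold were 0 of 17 at 22 °C and 1 at 4 °C. The nearest, Mtr (methionine synthase), starts 151 kb away, with log2 fold changes of 0.42 (edgeR adjusted p = 0.11) and 0.27 (adjusted p = 0.226). Actn2, a sarcomere gene of heart and slow muscle 234 kb away, had 0.37 (adjusted p = 0.927) and -0.45 (adjusted p = 0.892).

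**Figure D2:**
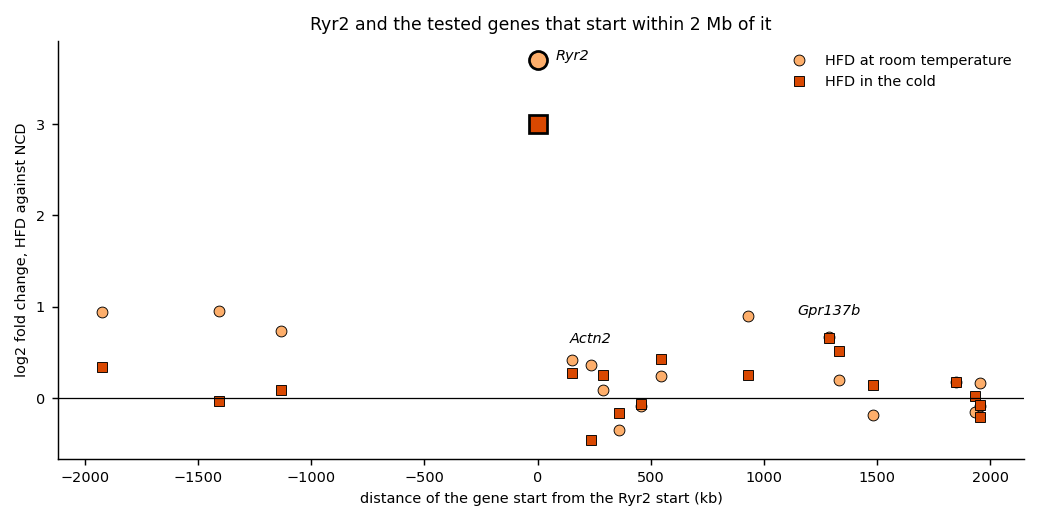
Log2 fold change of HFD against NCD (y axis) against the distance of the gene start from the Ryr2 start in kb (x axis), for Ryr2 (large marks) and the 17 tested genes within 2 Mb. Circles are 22 °C and squares 4 °C. Ryr2 stands at 3.70 and 2.998, and the neighbours between -0.45 and 0.96.

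By Pearson correlation of log2 CPM over the 12 libraries, the genes with the pattern most like Ryr2 were Rbbp8 (r = 0.953), Gpr137b (0.951), Rorb (0.941), Myo1e (0.939) and Prkch (0.938). These are descriptions, since the diet split that sets the pattern is shared by all of them. With HFD at 22 °C their log2 fold changes were 0.67 to 2.43, below the 3.70 of Ryr2, and at 4 °C they were 0.53 to 0.94 except for Rorb, at 3.11 beside the 2.998 of Ryr2. Rbbp8, a DNA end resection factor, had 7.90 to 11.9 CPM in NCD and 18.8 to 22.7 CPM in HFD libraries. Rorb, a retinoid-related orphan receptor, was scarce, at 0.401 to 1.10 CPM in NCD and 2.35 to 6.35 CPM in HFD libraries. Myo1e, a class I myosin, had 7.73 to 9.46 CPM in NCD and 13.6 to 15.98 CPM in HFD libraries. Prkch, protein kinase C eta, had 17.1 to 21.7 CPM and 27.5 to 32.6 CPM. Gpr137b, a lysosomal membrane protein, is the 1 neighbour of Ryr2 on chromosome 13 that passed the threshold, and its start lies 1287 kb away. It had 6.41 to 8.96 CPM in NCD and 11.2 to 14.0 CPM in HFD libraries.

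Ryr1, the release channel of skeletal muscle (chromosome 7, 29003344 to 29125179, minus strand), followed muscle content. NCD libraries at 22 °C had 93.1, 591 and 133 CPM, and those at 4 °C 64.8, 437 and 52.2 CPM. HFD libraries at 22 °C had 91.2, 77.1 and 924 CPM, and those at 4 °C 24.1, 28.0 and 265 CPM. The single high library of each group was the one with the highest muscle score. Over the 12 libraries Ryr1 correlated with the score at r = 0.990 (permutation p = 1e-05, the smallest that 100000 permutations give, adjusted over 9 genes 4.5e-05) and rho = 0.993 (permutation p = 1e-05, adjusted 4.5e-05). The permutations, here and for Atp2a1 and Sln below, shuffled all 12 libraries freely. Same-numbered libraries of a diet deviated together, so these p-values can be too small. Without the 2 libraries farthest from the median score r was 0.984, and within batch 1 it was 0.989 over 8 libraries. Batch 2 holds 4 libraries, too few for a value. Ryr1 counts were 0.165 to 0.281 of Acta1 counts and 0.327 to 0.530 of counts of Ckm (muscle creatine kinase) in every library, a 1.70-fold and a 1.62-fold range, while its CPM ranged 38.3-fold. In the fit of the group means no difference of Ryr1 passed, with -0.56 (SE 1.25, edgeR adjusted p = 0.857) for cold under NCD, -1.78 (SE 1.29, adjusted p = 0.398) for cold under HFD, 0.42 (adjusted p = 0.907) for HFD at 22 °C and -0.80 (adjusted p = 0.776) for HFD at 4 °C.

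Ryr3, the third ryanodine receptor (chromosome 2, 112631355 to 113217096, minus strand), had 1 to 11 counts a library, or 0.0450 to 0.523 CPM. A count of 0 would allow up to 3 counts, which is 0.0699 CPM in the deepest and 0.193 CPM in the shallowest library by effective size, for counting error only. In 3 of the 4 groups its highest value was in the library with the highest muscle score (0.523, 0.412 and 0.311 CPM). In HFD at 4 °C it was not, with 0.0450, 0.176 and 0.0932 CPM. No difference between groups was detectable at this depth. The gene shares its locus with Aven on the other strand, and the strand setting of the counting is not given.

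The IP3 receptors were the steadiest of the set. Itpr1 (chromosome 6, 108213096 to 108551109, plus strand) ranged 1.48-fold over the 12 libraries, from 332 to 490 CPM. Itpr3 (chromosome 17, 27057304 to 27122223, plus strand) ranged 1.33-fold, from 12.7 to 16.9 CPM. Itpr2 ranged 1.99-fold and carried a cold difference.

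Itpr2 (chromosome 6, 146108299 to 146502223, minus strand), an IP3 receptor subtype of high IP3 affinity, fell in the cold under HFD. HFD libraries at 22 °C had 447, 406 and 384 CPM, and HFD libraries at 4 °C had 225, 297 and 249 CPM, so that the groups did not overlap. The log2 fold change was -0.68 (SE 0.13, edgeR adjusted p = 0.00913), a 1.60-fold decrease. NCD libraries had 437, 339 and 375 CPM at 22 °C and 304, 257 and 276 CPM at 4 °C, again without overlap. Their log2 fold change was -0.46 (SE 0.13, adjusted p = 0.0618), which missed the threshold. Itpr2 was lower in the cold in 6 of 6 same-numbered pairs. That is a description, as the share of all genes that did so was not counted. The difference between both cold changes was -0.22 (SE 0.19, adjusted p = 0.871), so the diets were not shown to differ. With the muscle score as a term both cold differences passed, at -0.52 (adjusted p = 0.0329) under NCD and -0.77 (adjusted p = 0.00513) under HFD. Without the 4 libraries of highest muscle score, the difference under HFD was as large, -0.71, but missed the threshold (adjusted p = 0.059), and so it did in batch 1 alone (-0.71, adjusted p = 0.0934). Between diets the log2 fold change of Itpr2 was 0.10 (adjusted p = 0.738) at 22 °C and -0.12 (adjusted p = 0.671) at 4 °C.

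Itpr1, the most abundant IP3 receptor of neurons, had 395, 372 and 405 CPM in NCD at 22 °C and 490, 410 and 489 CPM at 4 °C, a log2 fold change of 0.24 (SE 0.12, edgeR adjusted p = 0.244). HFD libraries had 442, 417 and 377 CPM at 22 °C and 332, 404 and 388 CPM at 4 °C, a change of -0.14 (SE 0.12, adjusted p = 0.471). The NCD groups did not overlap and the HFD groups did. The test of the difference between both changes gave -0.38 (SE 0.16, adjusted p = 0.742). Itpr3, the subtype of epithelia and glands, had log2 fold changes of 0.03 to 0.17 in the 4 comparisons, none of which passed (adjusted p 0.462 to 0.889).

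Atp2a1, the SERCA pump of fast skeletal muscle (chromosome 7, 126445858 to 126463108, minus strand), ranged 28.9-fold and followed muscle as Ryr1 did. NCD libraries had 368, 2299 and 436 CPM at 22 °C and 253, 1323 and 157 CPM at 4 °C. HFD libraries had 351, 354 and 2891 CPM at 22 °C and 100.2, 126 and 661 CPM at 4 °C. The order of the 12 libraries by Atp2a1 was the order by muscle score (rho = 1, permutation p = 1e-05, adjusted 4.5e-05), with r = 0.991 (permutation p = 1e-05, adjusted 4.5e-05), r = 0.983 without the 2 farthest libraries and r = 0.996 within batch 1. Its counts were 1.26 to 1.88 times those of Ckm. The log2 fold changes were -0.84 (SE 1.13, edgeR adjusted p = 0.745) for cold under NCD, -2.02 (SE 1.16, adjusted p = 0.29) for cold under HFD, 0.21 (adjusted p = 0.951) for HFD at 22 °C and -0.96 (adjusted p = 0.684) for HFD at 4 °C.

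Sln (chromosome 9, 53850164 to 53854560, plus strand) was scarce. NCD libraries at 22 °C had 19, 96 and 122 counts (1.18, 5.58 and 2.99 CPM), and those at 4 °C 4, 53 and 1 counts (0.229, 3.12 and 0.0237 CPM). HFD libraries at 22 °C had 2, 3 and 122 counts (0.129, 0.157 and 3.45 CPM), and those at 4 °C 0, 0 and 25 counts (0, 0 and 0.583 CPM). No comparison passed (adjusted p 0.348 to 0.691). Its correlation with the muscle score was r = 0.917 (permutation p = 4e-05, adjusted 0.00012) and rho = 0.949 (permutation p = 2e-05, adjusted 6e-05), with r = 0.883 without the 2 farthest libraries and 0.959 within batch 1. Muscle libraries were not alike in Sln: NCD at 22 °C replicate 3 had 0.00433 Sln counts per Acta1 count, against a median of 0.000728 over the 12 libraries.

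**Figure D3:**
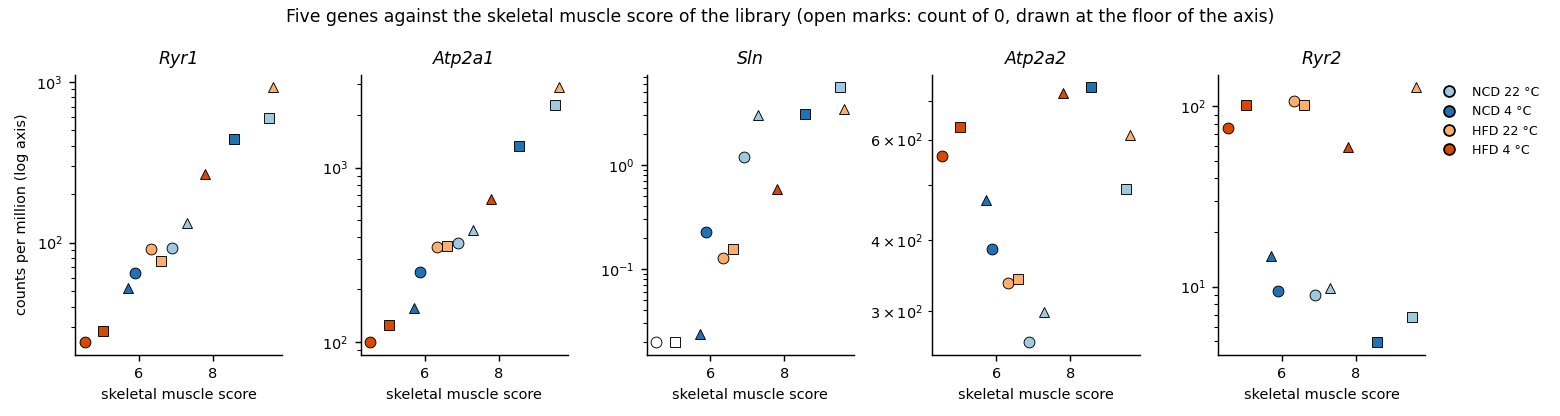
CPM (y axis, log scale) of Ryr1, Atp2a1, Sln, Atp2a2 and Ryr2 against the skeletal muscle score of the library, the mean log2 CPM of 17 markers (x axis). Colours are groups, shapes are replicate numbers and open marks are counts of 0 drawn at the bottom of the axis. Ryr1, Atp2a1 and Sln are higher at a higher score, Ryr2 splits by diet, and Atp2a2 lies higher in the cold at a given score.

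Atp2a2, the widely expressed SERCA pump of heart, slow muscle and non-muscle cells (chromosome 5, 122453513 to 122502225, minus strand), was higher in the cold in 6 of 6 same-numbered pairs. That count is a description, without the share of all genes beside it. NCD libraries had 265, 492 and 299 CPM at 22 °C and 386, 741 and 469 CPM at 4 °C. HFD libraries had 337, 342 and 612 CPM at 22 °C and 562, 631 and 724 CPM at 4 °C. In the fit of the 4 group means the groups overlapped, and neither 0.60 (SE 0.31, edgeR adjusted p = 0.3) under NCD nor 0.57 (SE 0.31, adjusted p = 0.261) under HFD passed. The muscle score was lower in each cold library than in the same-numbered library at 22 °C. Within groups Atp2a2 was highest in the library with the highest score (deviations from the group means correlated at 0.915, given as a description). With the score as a term, Atp2a2 was higher in the cold by 0.88 (adjusted p = 0.00634) under NCD and by 1.05 (adjusted p = 0.00269) under HFD. Without the 4 libraries of highest score it was higher by 0.60 (adjusted p = 0.0899) and 0.81 (adjusted p = 0.0292). Since the score itself differed with temperature, a term for it cannot fully separate the score from the cold. The part of muscle content in Atp2a2 was not tested. The summed brown adipocyte markers, Ucp1 included, were 7005 to 8756 CPM at 22 °C and 19887 to 23376 CPM at 4 °C under NCD. Under HFD they were 9209 to 11518 CPM and 15750 to 19396 CPM. Ucp1 was the largest part of these sums. Of the 8 markers, 7 were higher in the cold under NCD, with 3 called (Ucp1, Dio2 and Ppargc1a), and 5 under HFD, with Ucp1 and Dio2 called higher and Adipoq (adiponectin) called lower by a log2 fold change of -0.69 (adjusted p = 0.0232). Between diets the log2 fold change was 0.29 (adjusted p = 0.677) at 22 °C and 0.26 (adjusted p = 0.685) at 4 °C.

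Atp2a3, the SERCA pump of blood, endothelial and some epithelial cells (chromosome 11, 72961169 to 72993044, plus strand), was even in 3 groups and uneven in the fourth. NCD libraries had 10.5, 10.8 and 9.45 CPM at 22 °C and 7.05, 8.53 and 11.6 CPM at 4 °C, and HFD libraries at 22 °C had 10.6, 7.74 and 13.7 CPM. HFD libraries at 4 °C had 53.2, 10.2 and 28.0 CPM, so replicates 1 and 3 stood above all other libraries and replicate 2 did not. The log2 fold change was 1.51 (SE 0.45, edgeR adjusted p = 0.0541) for cold under HFD and 1.74 (SE 0.46, adjusted p = 0.0502) for HFD in the cold, both short of the threshold. DESeq2 called both, with adjusted p = 0.00332 and 0.000992. Without HFD at 4 °C replicate 2 both passed, at 1.92 and 2.16, and without replicate 1 they were 0.88 and 1.11. The interaction of diet and temperature was 1.68 (SE 0.64, adjusted p = 0.698). The macrophage marker Cd68 was high in the same libraries (16.7, 4.89 and 19.2 CPM in HFD at 4 °C, against 2.60 to 5.59 CPM elsewhere). The 6 macrophage and lymphocyte markers summed to 42.4 to 95.3 CPM there and to 32.9 to 76.6 CPM in the other groups. In the cold under HFD 2 of the 5 tested were higher and only Cd68 was called (1.72, adjusted p = 0.0319). Ptprc, the marker of leukocytes, had 10.4, 9.82 and 15.1 CPM, within the 7.34 to 16.4 CPM of the other groups. The part of immune cells in Atp2a3 was not tested.

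**Figure D4:**
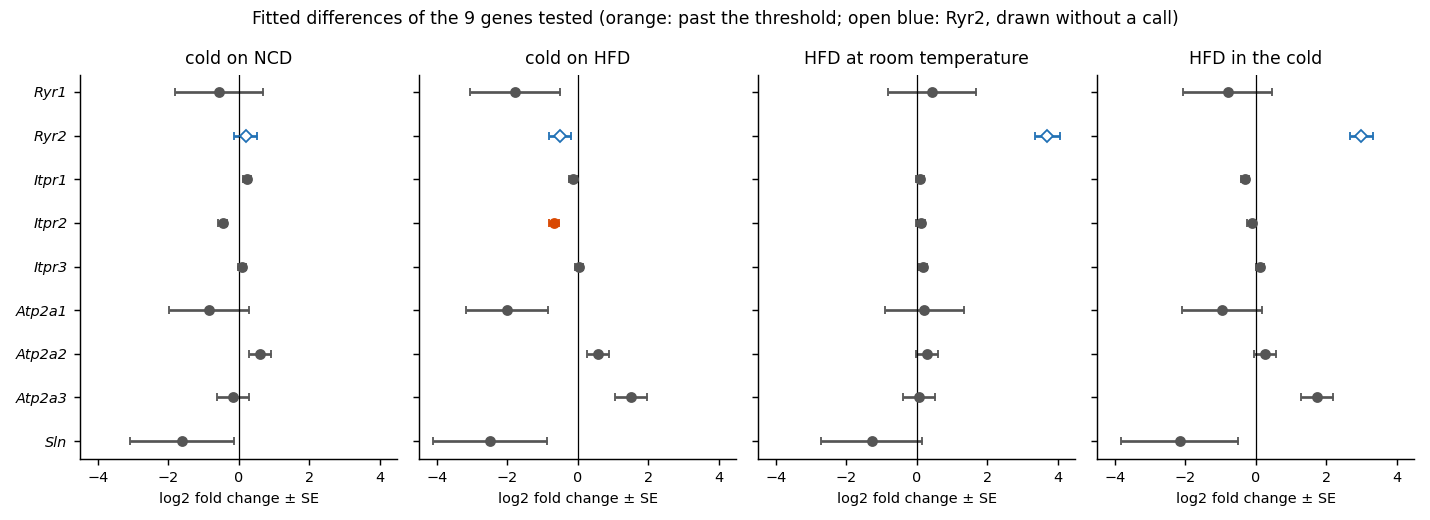
Log2 fold change with its standard error (x axis) of the 9 tested genes (rows) in the 4 comparisons (panels). Orange points passed the threshold for a call, and Ryr2, which was picked on its diet values, is open and has no call. Itpr2 under HFD is the orange point, and the bars of Ryr1, Atp2a1 and Sln are the widest.

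Same-numbered libraries of a diet deviated together from their group means, and a fit that kept the number as a block within diet called more. Over all genes this fit called 8.86% in the cold under NCD and 12.9% under HFD. Under NCD it called 3 of 9 members: Atp2a2, which rose by 0.59 (edgeR adjusted p = 0.0262), Ryr1, at -0.77 (adjusted p = 0.0309), and Atp2a1, at -0.94 (adjusted p = 0.019). Itpr2 had an adjusted p of 0.0462 there with a change of -0.45, under the minimum fold change. Under HFD it called 5 of 9: Atp2a2 at 0.62 (adjusted p = 0.0167), Atp2a3 at 1.26 (adjusted p = 0.0313), Itpr2 at -0.69 (adjusted p = 0.00769), Ryr1 at -1.73 (adjusted p = 0.00122) and Atp2a1 at -1.81 (adjusted p = 0.00119). In this fit Acta1 fell by 1.12 (adjusted p = 0.00453) and 1.60 (adjusted p = 0.000777) on the log2 scale and Ckm by 1.10 (adjusted p = 0.00488) and 1.76 (adjusted p = 0.000609), so the lower Ryr1 and Atp2a1 stand beside lower muscle markers. With the muscle score as a term and no block, the cold differences of Ryr1 were 0.49 (adjusted p = 0.0715) and 0.11 (adjusted p = 0.73), and those of Atp2a1 0.19 (adjusted p = 0.548) and -0.17 (adjusted p = 0.595).

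**Figure D5:**
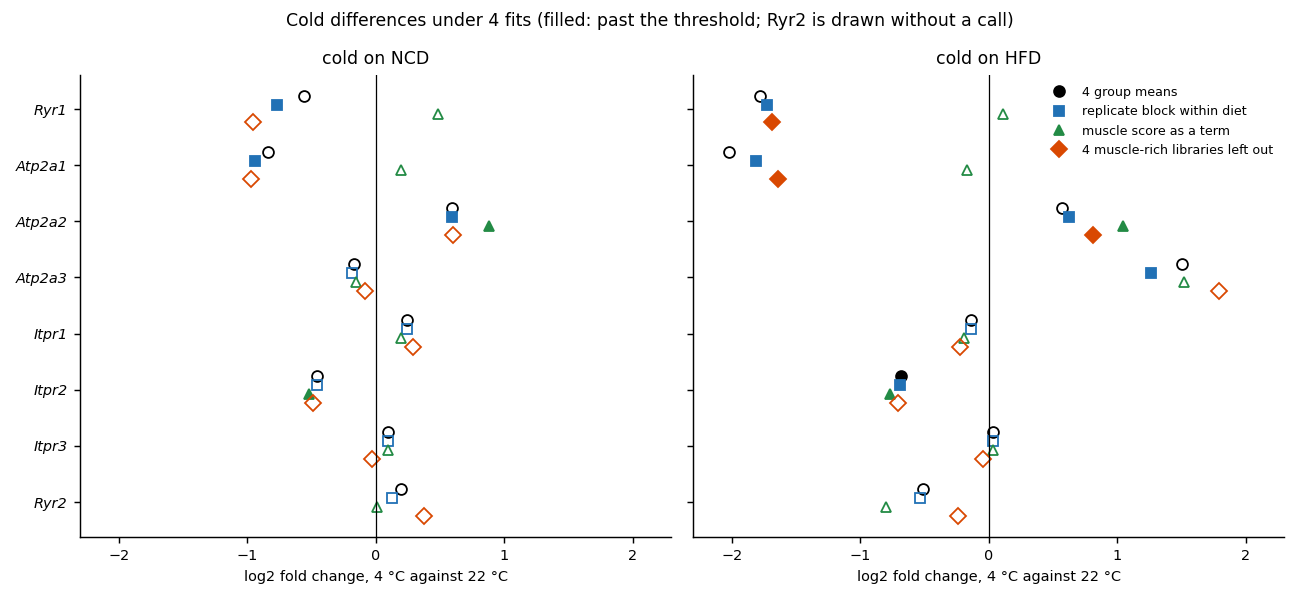
Log2 fold change of 4 °C against 22 °C (x axis) for 8 genes (rows) under NCD and HFD (panels) in 4 fits: the 4 group means, the replicate block within diet, the muscle score as a term, and without the 4 libraries of highest muscle score. Filled marks passed the threshold, and Ryr2 has no call. Atp2a2 lies at 0.57 to 1.05 and Itpr2 at -0.77 to -0.45 in all 4 fits, while Ryr1 and Atp2a1 move to between -0.17 and 0.49 with the muscle score.

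Levels of different genes are set side by side here per kb of merged exon, which is a rough scale. Merged exons join all annotated transcripts of a gene, and which of them these libraries held was not tested. In NCD at 22 °C the means were 298 CPM per kb for Atp2a1, 57.9 for Atp2a2, 25.9 for Itpr2, 21.3 for Itpr1, 12.5 for Ryr1, 2.47 for Sln, 1.94 for Atp2a3, 1.52 for Itpr3, 0.297 for Ryr2 and 0.0120 for Ryr3. Itpr2 and Itpr1 did not overlap in this group on that scale (22.9 to 29.5 against 20.3 to 22.1). In CPM they did (339 to 437 against 372 to 405), so their order rests on the exon lengths. Per kb, Ryr1 (4.26 to 27.1) overlapped both and Sln (0.897 to 4.23) overlapped Atp2a3 and Itpr3. In HFD at 22 °C Ryr2 stood at 3.89 ± 0.47 CPM per kb (SD, n = 3), above Atp2a3 at 2.02 ± 0.56 and Itpr3 at 1.72 ± 0.14. In the 2 HFD libraries at 22 °C with low muscle score, Ryr1 had 4.18 and 3.53 CPM per kb, and Ryr2 had 3.71 and 3.55.

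The wider calcium pathway was read from 7 lists, with 98 tested genes. Cold called 5 of them under NCD (1 higher and 4 lower) and 7 under HFD (2 higher and 5 lower), and HFD called 2 at 22 °C and 4 at 4 °C. These counts of 98 are near the shares of all genes called, which were 6.27%, 9.58%, 2.09% and 4.75%. The medians over the lists were -0.12, -0.10, 0.01 and -0.06 on the log2 scale, beside -0.01, -0.04, 0.03 and 0.02 over all genes. Partners of the ryanodine receptor and proteins of the store (14 tested) and SERCA regulators other than Sln (5 tested) had no call in any of the 4 comparisons. Their medians in the cold were -0.54 and -1.14 for the regulators and -0.54 and -0.65 for the other list, under NCD and HFD. Large differences could miss the threshold where the SE was wide, as for Casq1 in the cold under HFD (-2.49, SE 1.21). The part of muscle content in these 2 lists was not tested.

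In the IP3 list (23 tested), 2 genes were called in the cold under NCD, where 6.27% of all genes were, 6 in the cold under HFD (9.58%), 0 with HFD at 22 °C (2.09%) and 2 with HFD at 4 °C (4.75%). Ahcyl2, a relative of the IP3 receptor inhibitor IRBIT, fell in the cold from 172, 143 and 157 CPM to 91.8, 66.8 and 87.9 CPM under NCD (-0.94, SE 0.13, edgeR adjusted p = 0.00262). Under HFD it fell from 121, 109 and 101 CPM to 56.2, 60.7 and 51.2 CPM (-0.98, SE 0.13, adjusted p = 0.00154). The HFD against NCD difference of Ahcyl2 (log2) was -0.55 (adjusted p = 0.0398) at 4 °C, which was a call, and -0.51 (adjusted p = 0.0749) at 22 °C, which was not. Itpka, a kinase that removes IP3, fell as well, by 0.92 (adjusted p = 0.0239) and 1.07 (adjusted p = 0.00961) on the log2 scale. Mrvi1, which ties the IP3 receptor to cGMP signalling, fell under HFD by 0.74 (adjusted p = 0.0114). Plcb2, a phospholipase C of blood cells that forms IP3, rose in the cold under HFD by 1.89 (SE 0.48, adjusted p = 0.0271), from 2.32, 1.99 and 1.47 CPM to 12.0, 2.33 and 6.90 CPM. Replicates 1 and 3 were its high libraries, as for Atp2a3 and Cd68. The call of Plcb2 was lost in 8 of 24 alternative fits, and its direction turned in 1 more. That of Itpka was lost in 7 of 24 under NCD and 2 of 24 under HFD. Ahcyl2 lost its call in 1 of 24 for cold under either diet, and in 10 of 22 for HFD at 4 °C. The other calls of this list were Ahcyl1, which encodes IRBIT (-0.73, adjusted p = 0.0237), and Plcd1 (0.64, adjusted p = 0.00978) in the cold under HFD, and Erlin1 (0.74, adjusted p = 0.0284) with HFD at 4 °C, named after their values were seen.

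Other lists gave single genes. Camkk2, a calcium-dependent kinase upstream of AMPK, fell with HFD at 22 °C from 46.4, 53.8 and 42.8 CPM to 23.6, 21.9 and 12.8 CPM (-1.30, SE 0.20, edgeR adjusted p = 0.00909), and in the cold under NCD by 0.85 (adjusted p = 0.0266). Letm1, of the inner mitochondrial membrane, rose in the cold under NCD by 0.63 (adjusted p = 0.025). Atp2b4, a calcium pump of the plasma membrane, fell there by 0.74 (adjusted p = 0.0362). Cacna1a, a pore subunit of voltage-gated channels, rose with HFD at 22 °C by 0.73 (adjusted p = 0.0405) and fell in the cold under HFD by 0.72 (adjusted p = 0.0152). The first of these calls was lost in 12 of 22 alternative fits and the second in 6 of 24. Cacnb2, a channel subunit, rose with HFD at 4 °C by 1.42 (adjusted p = 0.0444) from 0.401 to 0.530 CPM to 0.886 to 1.58 CPM, values of few counts, and lost its call in 17 of 22 alternative fits. Stim1, the calcium sensor of store-operated entry, fell there by 0.52 (adjusted p = 0.0279). Its call was lost in 10 of 22 alternative fits. The calls in the cold under NCD were lost in 9 of 24 for Atp2b4, 8 of 24 for Letm1 and 7 of 24 for Camkk2.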

How the data were processed

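Total RNA of iBAT was sequenced in pairs after ribosomal RNA depletion. Per the paper, the authors trimmed reads with cutadapt and quantified them with salmon on GENCODE M22 and RNAcentral 5 (GRCm38). Tool versions and the strand setting are not given in the sources used here. The values the authors deposited are estimated counts per gene in whole numbers, which were used as they stand.

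Genes were filtered with filterByExpr (minimum count 10), scaled by TMM and fitted with edgeR 4.0.16 (quasi-likelihood, 4 group means, 12 libraries, no covariate), with Benjamini-Hochberg adjustment over 16737 genes. A call needed an adjusted p below 0.05 and a log2 fold change beyond 0.5 in size (interaction: adjusted p alone). SE is the log2 fold change over the root of F. DESeq2 1.42.0 was an alternative, and it gave no p-value for Ryr1, Atp2a1, Acta1 and Ckm. The fit was also run on simulated counts without replicate pairing or differences in muscle content, so that run cannot speak to either. CPM are TMM-scaled, and correlations use log2 CPM with a prior count of 2.

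Same-numbered libraries of a diet deviated together over all tested genes (r = 0.219, 0.456 and 0.281 under NCD, 0.155, 0.217 and 0.386 under HFD), so the replicate block within diet is printed where it changes a call. Replicate numbers come from the labels, and number 3 is batch 2. The labels do not say that same-numbered libraries are paired. No 2 libraries were alike, with at least 25337 genes differing. Depth sets the precision of low counts, and it was 15136861 to 46740702 counts.

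The members and lists were chosen with earlier results of these data known. By rule, the genes named are the 10 members, up to 4 called genes of each calcium list by size of change, Acta1, Ckm and the 5 genes most correlated with Ryr2. Outside the rule, the other called IP3 genes, neighbours of Ryr2 and single cell type markers were named after their values were seen. Of the listed names, 5 had no row. Coordinates and merged exons are from GENCODE M21 (GRCm38), promoter windows from RefSeq (GRCm38.p6). Alternatives were other tests, scalings, filters, batch and block terms, the muscle score as a term and leaving out each library. A pair of them was chosen after seeing the data: leaving out the 4 libraries with the highest muscle score in their group, and the block together with the score.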

Additional observations from a re-analysis of the deposited data

How the results depend on the processing

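Over 22 alternative fits, the HFD log2 fold change of Ryr2 was 3.46 to 3.79 at 22 °C and 2.69 to 3.62 at 4 °C. These fits reuse the values that chose the gene, so they are a description and no support for the difference. Itpr2 stayed lower in the cold in all 24 fits of each diet. Counts of called genes moved as follows. In the cold under NCD, 0 became 3 with the replicate block within diet and 2 with the muscle score as a term (Atp2a2 and Itpr2). Over all genes these fits called 1483 and 1125 of 16737, against 1049 in the main fit. Without the 4 libraries of highest score the count stayed at 0, with 281 of all 16659 genes called. Acta1 (-1.29, edgeR adjusted p = 0.0385) and Ckm (-1.17, adjusted p = 0.0475) were called lower there. In the cold under HFD, 1 became 2 with DESeq2, with no filter and with a mean of at least 10 counts (Atp2a3 added in each). It became 5 with the replicate block within diet, 2 with the muscle score (Atp2a2 added) and 0 in batch 1 alone. Without the 4 libraries of highest score it became 3, and Itpr2 lost its call. The 3 were Atp2a2 (0.81, adjusted p = 0.0292), Ryr1 (-1.69, adjusted p = 0.00704) and Atp2a1 (-1.64, adjusted p = 0.0112). Acta1 (-1.66, adjusted p = 0.0117) and Ckm (-1.62, adjusted p = 0.0112) passed there as well, both lower. Over all genes the main fit called 1603 of 16737 in the cold under HFD. DESeq2 called 2051 and no filter 1616 of 37458, and the mean of at least 10 counts 1635 of 16577. The replicate block within diet called 2153 and the muscle score 1663 of 16737. Without the 4 libraries 731 of 16659 were called, and in batch 1 alone 416 of 16587. Leaving out 1 library gave 1 to 2 members in the cold under HFD and 1 to 2 with HFD in the cold. Over all genes it gave 1013 to 1672 and 239 to 992. With HFD in the cold, 1 became 2 with DESeq2, no filter, the mean of at least 10 counts and the muscle score (Atp2a3 added) and without the 4 libraries (Ryr1 added, at -1.16). Over all genes these fits called, in this order, 1312 and 782 of 37458, 835 of 16577, 1147 of 16737 and 384 of 16659. The main fit called 795 of 16737. The replicate block within diet changed no other call of a gene named here and gives no value between diets. A block over all 4 groups changed no call but that of Cacnb2 with HFD at 4 °C (1.43, adjusted p = 0.064).

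The block and the muscle score together, chosen after seeing the data, left 0 genes of all 16737 called in the cold under either diet, and so 0 members under HFD. The block and cold terms give 99.5% of the variance of the score, so this fit cannot separate them. Its values turned direction for Ryr1 (0.97 under NCD and 0.82 under HFD), Atp2a1 (0.71 and 0.60), Sln (6.32 and 11.5), Ryr2 (-0.55 under NCD), and under HFD Atp2a3 (-1.63), Plcb2 (-1.86) and Mrvi1 (0.16).

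No other called value turned direction. Among uncalled ones, the muscle score as a term turned Ryr1 in the cold to 0.49 and 0.11 and Atp2a1 under NCD to 0.19. Batch as a term turned Ryr1 (-0.65) and Atp2a1 (-0.50) with HFD at 22 °C. Batch 1 alone turned Ryr1 (-2.02), Atp2a1 (-1.92), Atp2a2 (-0.16) and Atp2a3 (-0.22) with HFD at 22 °C, Ryr2 in the cold under NCD (-0.14) and Itpr3 in the cold under HFD (-0.04). Without the 4 libraries, Ryr1 (-0.43), Atp2a1 (-0.19) and Atp2a3 (-0.12) turned with HFD at 22 °C and Itpr3 in the cold (-0.03 under NCD and -0.05 under HFD). The cause was not tested.

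Leaving out 1 library moved Ryr1 from -2.22 to 0.71 (cold, NCD), -3.77 to 0.34 (cold, HFD), -1.69 to 1.68 (HFD, 22 °C) and -2.83 to 0.86 (HFD, 4 °C). Atp2a1 moved from -2.33 to 0.52 (cold, NCD), -1.55 to 1.57 (HFD, 22 °C) and -2.36 to 0.53 (HFD, 4 °C), and Sln from -7.99 to 0.69 (cold, HFD) and -7.69 to 1.24 (HFD, 4 °C). In each of these ranges the library left out at either end was one with the highest muscle score of its group (replicate 2 of an NCD group or replicate 3 of an HFD group). Smaller ranges across 0 were -0.26 to 0.51 for Ryr2 (cold, NCD), -0.01 to 0.14 for Itpr1, -0.05 to 0.60 for Atp2a2 and -0.16 to 0.25 for Atp2a3 (all HFD, 22 °C), and -0.02 to 0.13 for Itpr3 (cold, HFD). Of the other calcium genes, Camkk2 with HFD at 22 °C kept its call in all 22 fits. Precision is limited by 3 libraries a group and, for Ryr3 and Sln, by counts near 0.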
